A study of Mus musculus with 12 samples.

Results

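The genes described here are the 52 that encode the core DNA replication machinery, from the complex that marks replication origins to the proteins that protect a running fork. They were chosen by symbol from the deposited gene count table, and all 52 were found among its 55536 annotated genes. All 52 also passed the filter on low counts, which kept 18817 genes. They were sorted by role into 14 functional groups, and every member is named below. The labels put 12 RNA-seq libraries of mouse CD8+ T cells into 3 groups. OT-I cells are T cells whose transgenic receptor recognises a peptide of ovalbumin, and they came from mice that, per the study's methods, also lacked Rag1 or Rag2 and so have no other T cells. In 5 libraries (Ag) OT-I cells had been transferred into C57BL/6J recipients that then received the peptide with a control rat IgG. In 5 libraries (Ag+Costim) the recipients received the peptide with agonist antibodies against OX40 (CD134) and 41BB (CD137), which are costimulatory receptors of the tumour necrosis factor receptor family. Transferred cells were recovered by sorting from spleen and lymph nodes 4 days later by the labels. The methods text gives a slightly shorter time. In 2 libraries (Naive) the CD8+ cells came from OT-I mice that were neither transferred nor stimulated, so Naive differs from the other groups in host as well as in treatment. All cells carry the same receptor, which limits the groups as a model of a mixed T cell response. The labels number the libraries but do not say which mouse each came from, so p-values measure the spread between these samples.

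Replication begins when the origin recognition complex, Cdc6 and Cdt1 load the ring-shaped MCM helicase onto DNA, a step called licensing. In S phase, kinases and loading factors join Cdc45 and the GINS complex to the ring to make an active helicase, and polymerase alpha with its primase starts each strand. Polymerase epsilon extends the leading strand and polymerase delta the lagging strand, both held by the clamp PCNA, while RPA coats single-stranded DNA and ligase seals the fragments. A naive T cell is quiescent, and after antigen it enters a series of fast divisions in which this whole set of proteins is needed.

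Depth was 42342577 and 43491402 counts in the Naive libraries, 24006053 to 45980125 in Ag and 40028682 to 49294934 in Ag+Costim, the shallowest being Ag replicate 4. Levels are given as CPM, counts divided by library size after scaling by the trimmed mean of M values (TMM). The sum of 8 T cell markers ran from 14400 to 15400 CPM in Naive, 14400 to 20600 in Ag and 7730 to 10300 in Ag+Costim, and Cd4 stayed at or below 2.44 CPM in every library. The 9 B cell markers summed to 1080 to 1100, 1620 to 2610 and 805 to 1790 CPM, of which Pax5 was below 1 CPM throughout. The 9 myeloid markers summed to 43.1 to 126, 87.5 to 232 and 102 to 183 CPM, and the 3 natural killer markers to 21.6 to 22.0, 9.93 to 27.4 and 9.77 to 18.3 CPM. The 7 erythroid markers were higher in Ag, at 626 to 6380 CPM with the highest sum in replicate 4, than in Ag+Costim, at 14.5 to 223, with 150 and 2070 in the Naive libraries. The part of these other-cell markers in the results below was not tested. Activation markers (5 genes, Il2ra, Gzmb, Cd44, Tnfrsf4 and Tnfrsf9) summed to 32.0 to 32.1, 175 to 261 and 374 to 995 CPM. Gzmb, at 133 to 807 CPM, was the largest part of the sum in Ag+Costim. Il2ra and Cd44 were higher in every Ag+Costim library than in every Ag library, while Gzmb, Tnfrsf4 and Tnfrsf9 overlapped. In Ag+Costim replicate 4, Tnfrsf4 (1.47 CPM) and Tnfrsf9 (59.9 CPM) were below every Ag library. The 9 mitotic and proliferation markers that are not members, among them Mki67 and Cdk1, summed to 45.0 to 51.1 CPM in Naive, 660 to 1340 in Ag and 2780 to 3720 in Ag+Costim.

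Costimulation was accompanied by higher RNA of nearly the whole replication machinery. In Ag+Costim against Ag, 47 of the 52 members were called higher, none was called lower and 5 were not called (Orc4, Orc5, Gins4, Pole4 and Rpa3), at an adjusted p below 0.05 in edgeR's quasi-likelihood test over all genes. Of all 18817 genes tested, 26.6% were called higher and 26.5% lower in the same comparison. The median fitted log2 fold change of the members was 1.24, against -0.05 over all genes, and 38 members were called with more than a 2-fold rise. Values after a ± sign on the log2 scale are standard errors. Values ran from -0.22 for Pole4 to 3.09 for Mcm10. At an unadjusted p below 0.05 the count lower was 1. DESeq2 also called 47 higher and 0 lower, whereas scaling by the upper quartile called 2 lower (Orc5 and Pole4) and shifted the median of all genes from -0.05 to -0.24. Under that scaling 39.0% of all calls were rises, against 50.1% under TMM, and the members' median was 1.04.

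Most of the set was also higher after antigen alone. Against Naive, 40 members were called higher in Ag, 2 lower (Cdt1 and Pold1) and 10 were not called, with a median log2 fold change of 1.15 against 0.02 over all genes. Of all genes, 24.2% were called higher and 22.5% lower. On the scale of gene FPKM, explained below, 35 members were called higher and 2 lower, and rises made up 38.3% of all calls, against 51.9% on counts. In Ag+Costim against Naive, 49 were higher, 0 were lower and 3 were not called (Orc4, Orc5 and Pole4), with a median of 2.54 against -0.02. Of all genes, 26.9% were called higher and 25.4% lower in that comparison. At an unadjusted p below 0.05 the count lower was 0, DESeq2 too called 49 higher and 0 lower, and on gene FPKM 37.2% of all calls were rises, against 51.5% on counts. The 3 comparisons share libraries, so their values are given side by side and are not independent of each other. Ag and Ag+Costim are parallel groups taken on the same day, so a step below means a comparison and not a stage in time.

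Single libraries showed the same separation. Every Ag+Costim library lay above every Ag library for 45 of the 52 members and none showed the reverse, where 21.3% of all genes tested had such a gap upwards and 18.5% downwards. The other 7 members overlapped, namely the 5 uncalled members with Pole3 and Rfc2. Every Ag library lay above both Naive libraries for 39 members and below both for 2, and 27.2% of all genes had the upward and 29.2% the downward gap. Together the 52 genes took 0.282% and 0.287% of all counts in the Naive libraries, 0.393% to 0.587% in Ag and 1.12% to 1.55% in Ag+Costim. By position, 28 of the 52 members overlap another annotated gene, 21 of them a gene on the opposite strand, and the library kit does not mark strand, so reads of such neighbours are not separated in their values. These are bulk RNA measurements, in which more cells that express a gene and more RNA of it per cell cannot be told apart.

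**Figure D1:**
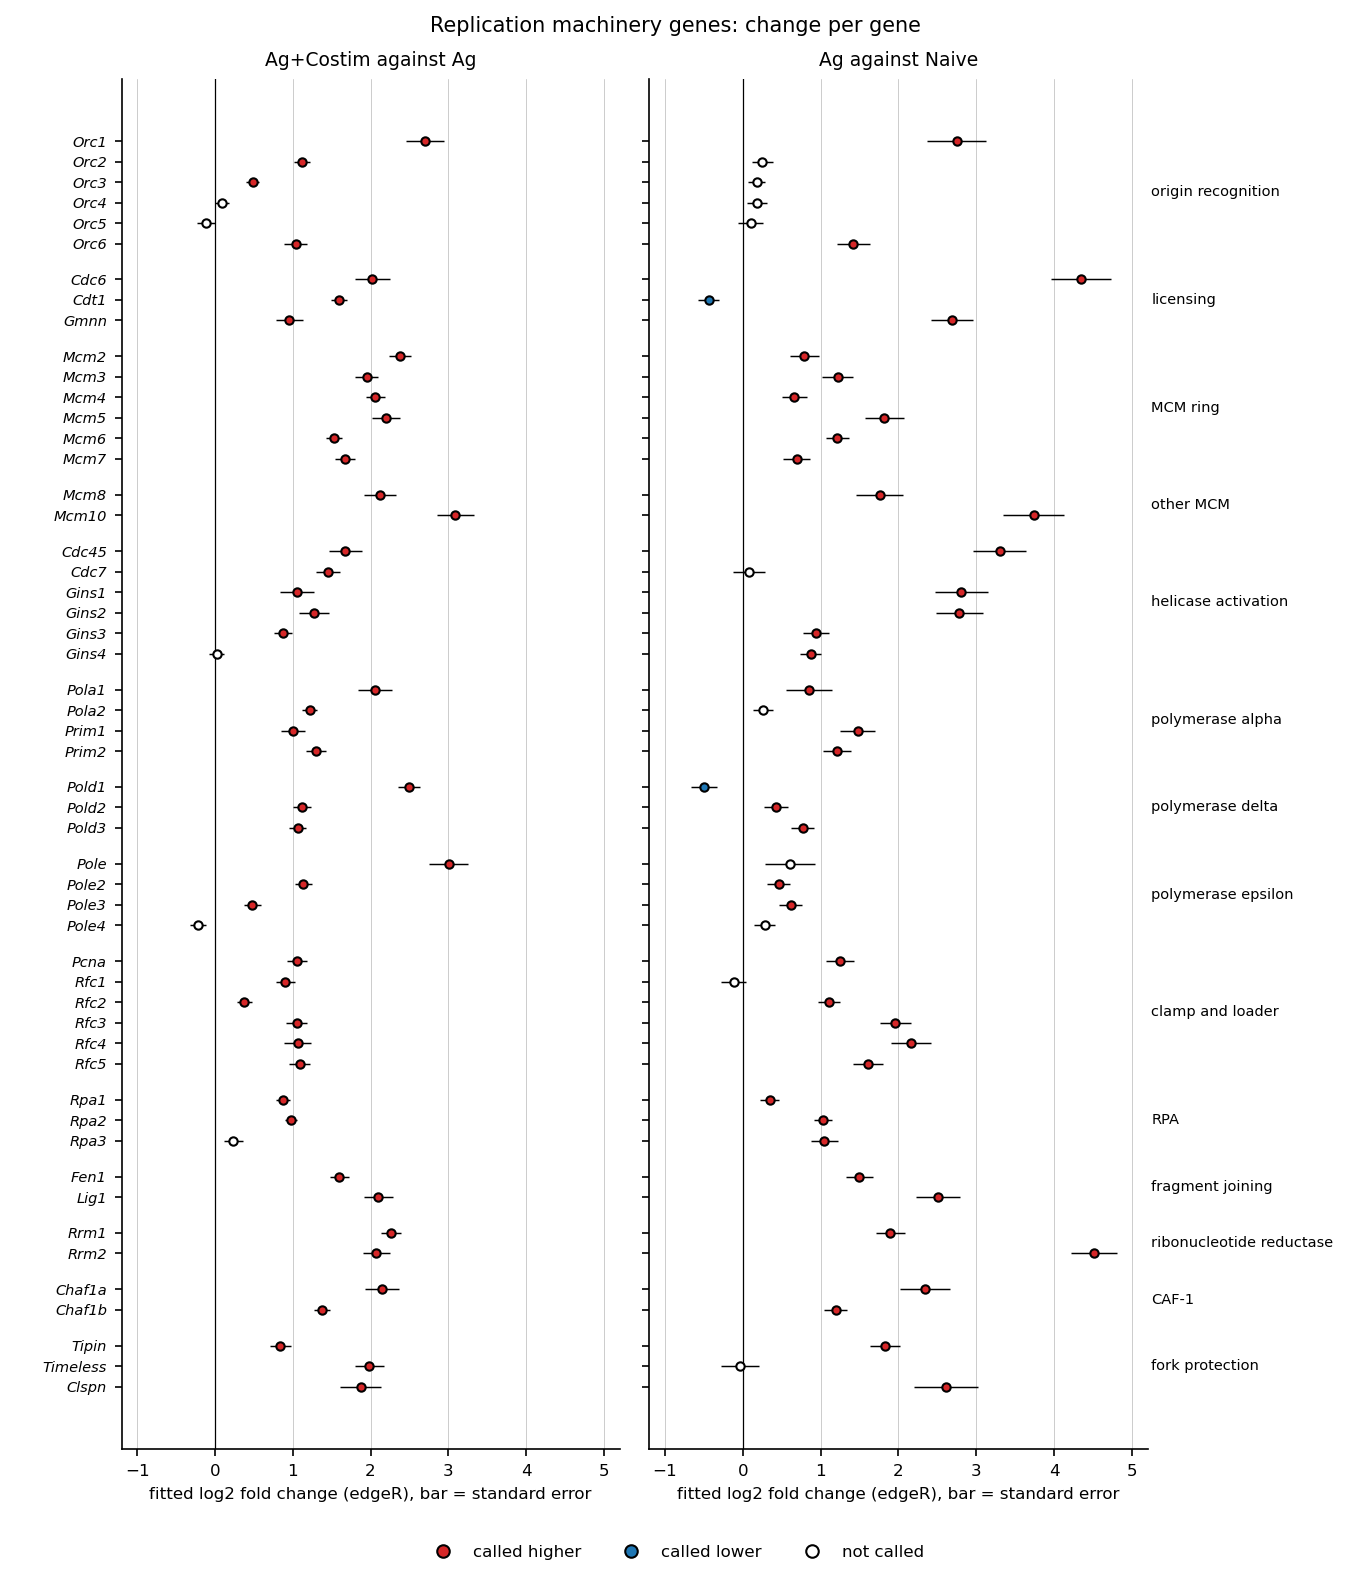
Fitted log2 fold change (x axis) of each of the 52 genes (y axis, sorted by functional group) in Ag+Costim against Ag (left) and Ag against Naive (right), with bars for the standard error and fill for the call at an adjusted p below 0.05. On the left 47 points are called higher, with the 5 open points near 0, and on the right 40 are higher and the 2 blue points, Cdt1 and Pold1, are lower.

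Promoter sequence was read for the members from RefSeq windows on GRCm38.p6 (the assembly also called mm10), 250 bases before to 50 after each start. Windows were present for 43 of the 52 members (not for Gmnn, Mcm4, Gins1, Gins2, Gins4, Prim2, Pole, Rfc2 and Tipin). They were searched on both strands for 4 spellings of the E2F-type motif (TTTCGCGC, TTTGGCGC, TTTCCCGC and TTTGCCGC), the recognition sequence of the factors that time S phase genes, and for CCAAT, the box bound by NF-Y. An E2F-type spelling occurred in 18 of the 43 members (41.9%) and in 704 of all 27025 genes with a window (2.60%). The CCAAT box occurred in 26 of 43 members (60.5%) and in 41.1% of all genes. Of the 4 uncalled members with a window, Pole4 alone held an E2F-type spelling and 2 held CCAAT. These are matches of letters, not shown binding sites. The stretch from 120 bases before to 25 after the start is printed for the member with the largest rise (Mcm10), the most changed subunit of origin recognition (Orc1), the ring subunit with the highest level (Mcm6), the most abundant member after costimulation (Rrm2) and the member with the lowest fold change (Pole4). Capitals mark the motif letters on either strand, and in Mcm6 the first capital run joins 2 overlapping E2F-type spellings.
Mcm10 (chr2:5012767-5012911, minus strand): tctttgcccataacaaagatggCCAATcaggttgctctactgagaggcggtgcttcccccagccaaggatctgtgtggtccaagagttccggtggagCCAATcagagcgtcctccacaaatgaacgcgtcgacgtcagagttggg
Orc1 (chr4:108579334-108579478, plus strand): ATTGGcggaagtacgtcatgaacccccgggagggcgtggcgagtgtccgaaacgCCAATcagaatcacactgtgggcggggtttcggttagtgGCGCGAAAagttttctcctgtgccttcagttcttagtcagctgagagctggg
Mcm6 (chr1:128359681-128359825, minus strand): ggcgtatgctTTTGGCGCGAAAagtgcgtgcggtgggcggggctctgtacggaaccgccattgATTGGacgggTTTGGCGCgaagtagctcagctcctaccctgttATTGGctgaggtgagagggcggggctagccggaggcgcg
Rrm2 (chr12:24708134-24708278, plus strand): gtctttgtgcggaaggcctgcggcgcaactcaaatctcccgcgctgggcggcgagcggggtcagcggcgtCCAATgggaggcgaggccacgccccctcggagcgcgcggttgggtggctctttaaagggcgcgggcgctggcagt
Pole4 (chr6:82652850-82652994, minus strand): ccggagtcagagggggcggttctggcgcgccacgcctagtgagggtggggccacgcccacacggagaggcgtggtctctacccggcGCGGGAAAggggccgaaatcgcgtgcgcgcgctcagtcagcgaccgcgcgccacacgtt
In the whole window, Mcm10 and Rrm2 held CCAAT without an E2F-type spelling, Orc1 and Mcm6 held both, and Pole4 held an E2F-type spelling without CCAAT.

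The origin recognition complex, which binds replication origins and seeds the loading of the helicase, was split. Orc1, the subunit whose protein is known to be regulated through the cell cycle (ENSMUSG00000028587.18, chr4:108579423-108614833, plus strand), moved furthest. It read 1.11 and 1.36 CPM in the Naive libraries, 13.2, 7.81, 6.08, 8.90 and 5.72 CPM in Ag replicates 1 to 5 and 59.5, 71.3, 53.5, 34.2 and 53.4 CPM in Ag+Costim replicates 1 to 5. The 3 groups did not overlap, and the lowest Ag+Costim library was still above the highest Ag library. Its log2 fold change was 2.70 (standard error 0.24, adjusted p = 8.54e-07) in Ag+Costim against Ag and 2.75 (standard error 0.38, adjusted p = 5.90e-05) in Ag against Naive. Orc4, an ATPase-fold subunit of the core ring, was the least changed subunit (ENSMUSG00000026761.12, chr2:48902824-48950277, minus strand), with 62.5 and 53.9 CPM in Naive, 70.3, 61.6, 75.2, 53.8 and 68.5 in Ag and 72.0, 70.0, 74.0, 65.1 and 70.3 in Ag+Costim. All Ag+Costim values of Orc4 lay within the range of the Ag libraries, and its log2 fold change was 0.09 (standard error 0.09, adjusted p = 0.434). Orc5, the neighbouring core subunit, gave -0.11 (standard error 0.12, adjusted p = 0.457). It was called lower without Ag replicate 4 (-0.22, adjusted p = 0.00681) and with upper-quartile scaling (-0.30, adjusted p = 0.0355). The other subunits rose in Ag+Costim against Ag: Orc2 by 1.12 ± 0.10, Orc3 by 0.49 ± 0.09 and Orc6 by 1.04 ± 0.15 on the log2 scale. With antigen only Orc1 and Orc6 of the 6 were called, Orc6 with 1.42 (standard error 0.21, adjusted p = 1.24e-04), while Orc2, Orc3, Orc4 and Orc5 had values between 0.10 and 0.25. Under the correction for transcript length Orc2 (0.60, adjusted p = 0.00300) and Orc4 (0.40, adjusted p = 0.0246) were called higher with antigen too, as was Orc5 without Ag replicate 4 (0.21, adjusted p = 0.0388).

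Of the licensing factors, Cdc6 and Cdt1 bring the helicase to the origin and geminin (Gmnn) inhibits Cdt1 to prevent repeated licensing. Cdc6 was nearly silent in Naive, with 1.87 and 2.75 CPM, and read 61.0, 49.6, 38.4, 60.3 and 26.4 CPM in Ag and 199, 237, 206, 134 and 182 in Ag+Costim, again without overlap. Its log2 fold change was 4.35 (standard error 0.38, adjusted p = 1.47e-06) for the antigen step and 2.02 (standard error 0.22, adjusted p = 4.87e-06) for added costimulation. Gmnn read 13.9 and 12.7 CPM in Naive, 108, 75.8, 87.1, 108 and 51.0 in Ag and 178, 168, 178, 131 and 178 in Ag+Costim, and every Ag+Costim library was above every Ag library. The rise of Gmnn with costimulation was 0.96 (standard error 0.17, adjusted p = 4.00e-04). Cdt1 followed another course. Its mean was 59.8 ± 2.28 CPM (SD, n = 2) in Naive, 44.2 ± 6.63 (n = 5) in Ag and 133 ± 11.1 (n = 5) in Ag+Costim, so it fell with antigen by 0.44 ± 0.13 on the log2 scale (adjusted p = 0.0161) and rose with costimulation by 1.59 (standard error 0.11, adjusted p = 7.17e-08). The fall was no longer called when either Naive library was left out (adjusted p = 0.116 and 0.0678). On the scale of FPKM, the authors' fragment counts divided by transcript length and library size, the level of Cdt1 relative to Gmnn was 2.05 in both Naive libraries, 0.180 to 0.325 in Ag and 0.334 to 0.395 in Ag+Costim. The RNA level of Cdt1 thus exceeded that of Gmnn in Naive alone, which does not give the levels of the proteins.

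The ring of Mcm2, Mcm3, Mcm4, Mcm5, Mcm6 and Mcm7, the motor of the replicative helicase, rose as a whole at both steps. All 6 were called higher in Ag+Costim against Ag, with log2 fold changes from 1.53 to 2.38, and all 6 in Ag against Naive, from 0.66 to 1.82. Mcm2 (ENSMUSG00000002870.8, chr6:88883474-88898780, minus strand), the ring subunit with the largest change, read 71.0 and 82.3 CPM in Naive, 139.5, 146, 118, 156 and 102 in Ag and 688, 821, 736, 519.5 and 683 in Ag+Costim. The Ag libraries sat just above Naive and far below Ag+Costim, with a log2 fold change of 0.79 (standard error 0.19, adjusted p = 0.0036) for antigen and 2.38 (standard error 0.14, adjusted p = 3.33e-08) for costimulation. Mcm6, with the smallest change of the ring, read 180.4 and 179.9 CPM in Naive, 448, 458, 408, 426 and 351 in Ag and 1244, 1351, 1284, 947 and 1211 in Ag+Costim, which is 1.53 (standard error 0.11, adjusted p = 9.62e-08) for costimulation. Even this smallest change of the ring left a wide gap between the highest Ag and the lowest Ag+Costim library. The other ring subunits gave 1.95 ± 0.15 (Mcm3), 2.06 ± 0.12 (Mcm4), 2.20 ± 0.18 (Mcm5) and 1.67 ± 0.13 (Mcm7) in Ag+Costim against Ag. The antigen calls of Mcm2 and Mcm4 were lost without Naive replicate 1 (adjusted p = 0.0583 and 0.0824) and that of Mcm7 without Naive replicate 2 (adjusted p = 0.0714) and on gene FPKM (0.37, adjusted p = 0.0862). Mcm7 also hosts the microRNAs Mir25, Mir93 and Mir106b and overlaps Cops6 and Ap4m1 on the opposite strand.

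**Figure D2:**
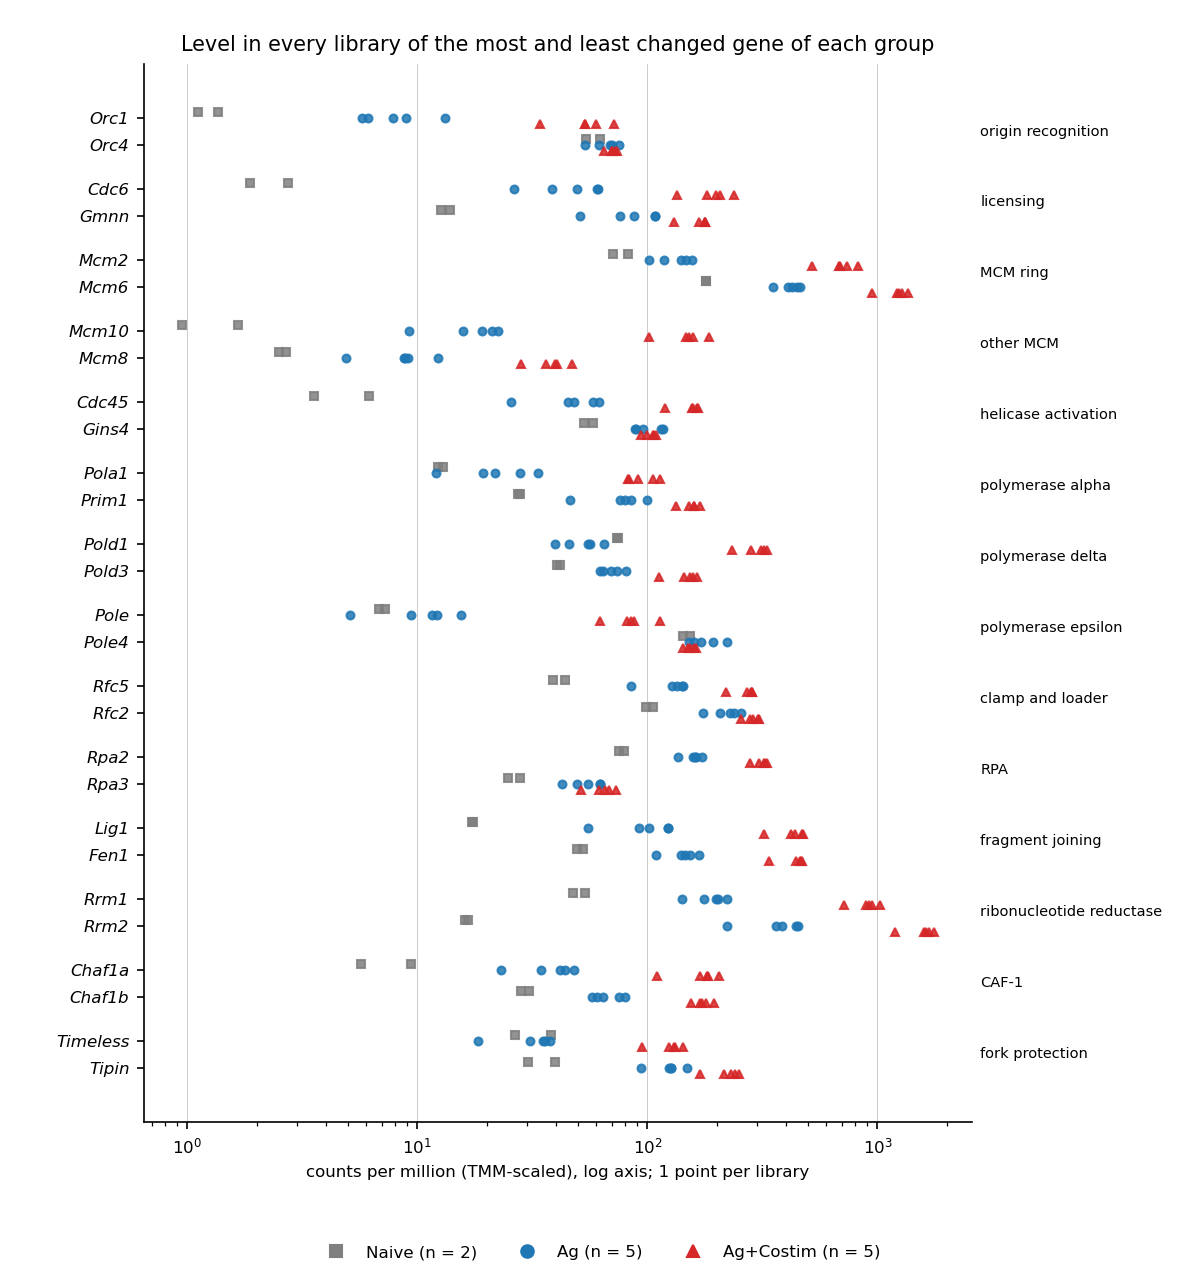
CPM (scaled counts, x axis, log scale) in each library for the most and the least changed gene of each functional group (y axis), with 1 point per library and 3 groups (2 Naive, 5 Ag and 5 Ag+Costim libraries). Red points (Ag+Costim) lie to the right of all blue points (Ag) for most genes, and overlap them for Orc4, Gins4, Pole4, Rfc2 and Rpa3.

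Outside the ring, Mcm10 (a scaffold that helps to activate the helicase) and Mcm8 (a helicase known from recombination repair) had the lowest FPKM of the members in Naive and in Ag+Costim respectively. Mcm10 (ENSMUSG00000026669.14, chr2:4989714-5012791, minus strand) had the largest change of all 52 with costimulation. It read 1.67 and 0.945 CPM in Naive (81 and 45 counts), 21.1, 19.0, 15.8, 22.4 and 9.24 in Ag and 158, 185, 151, 102 and 146 in Ag+Costim. Ag lay entirely above Naive and Ag+Costim entirely above Ag. The log2 fold changes were 3.74 (standard error 0.39, adjusted p = 5.97e-06) for antigen, 3.09 (standard error 0.24, adjusted p = 2.35e-07) for costimulation and 6.83 (standard error 0.45, adjusted p = 6.34e-08) in Ag+Costim against Naive. Mcm8 read 2.51 and 2.69 CPM in Naive, 12.3, 8.86, 9.11, 8.74 and 4.88 in Ag and 39.6, 47.1, 36.3, 28.1 and 40.4 in Ag+Costim, which is 2.12 (standard error 0.21, adjusted p = 1.78e-06) for costimulation with no overlap.

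Helicase activation needs the kinase Cdc7, the factor Cdc45 and the 4 GINS subunits, which form a complex in equal parts. Cdc45 read 6.13 and 3.55 CPM in Naive, 58.2, 45.3, 48.2, 61.9 and 25.6 in Ag and 156, 164, 166, 120 and 158 in Ag+Costim, with 3.30 (standard error 0.34, adjusted p = 5.39e-06) for antigen and 1.67 (standard error 0.21, adjusted p = 1.70e-05) for costimulation. Its groups did not overlap. Gins4 read 57.9 and 52.8 CPM in Naive, 117, 96.1, 114, 89.3 and 88.5 in Ag and 106, 99.5, 107, 93.3 and 109 in Ag+Costim, so the costimulated libraries lay inside the range of the antigen libraries. Its log2 fold change was 0.87 (standard error 0.13, adjusted p = 1.28e-04) for antigen and 0.03 (standard error 0.10, adjusted p = 0.841) for costimulation, which under the correction for transcript length was 0.29 with an adjusted p of 0.00819, a called rise. The other GINS subunits rose at both steps, Gins1 by 2.81 and 1.05, Gins2 by 2.78 and 1.27 and Gins3 by 0.94 and 0.88 (log2, antigen then costimulation). Cdc7 had a log2 fold change of 0.07 (standard error 0.20, adjusted p = 0.792) with antigen and 1.45 (standard error 0.16, adjusted p = 3.99e-06) with costimulation, so its rise was called in the second comparison and not in the first.

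Polymerase alpha starts every new strand: Prim1 and Prim2 make the RNA primer, Pola1 extends it and Pola2 is the regulatory subunit. Pola1 read 13.0 and 12.3 CPM in Naive, 27.9, 21.7, 19.3, 33.4 and 12.1 in Ag and 83.3, 113, 106, 82.1 and 91.0 in Ag+Costim. Ag replicate 5 was below both Naive libraries, while all Ag+Costim libraries were far above all others, with 2.06 (standard error 0.22, adjusted p = 3.40e-06) for costimulation and 0.85 (standard error 0.29, adjusted p = 0.0292) for antigen. The antigen call of Pola1 was lost without Ag replicate 1 and without either Naive library (adjusted p from 0.0562 to 0.161). Prim1 read 27.4 and 28.1 CPM in Naive, 99.5, 75.6, 79.9, 84.7 and 46.0 in Ag and 159, 151, 159.8, 134 and 169 in Ag+Costim, with 1.00 (standard error 0.16, adjusted p = 1.15e-04) for costimulation and no overlap of groups. Prim2 rose by 1.21 ± 0.18 and 1.29 ± 0.13. Pola2 rose with costimulation by 1.22 ± 0.10 and had 0.26 (standard error 0.13, adjusted p = 0.115) with antigen, a value called without Ag replicate 5 (0.32, adjusted p = 0.0499).

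Polymerase delta consists here of the catalytic subunit Pold1 and the accessory subunits Pold2 and Pold3. Pold1 (ENSMUSG00000038644.14, chr7:44532746-44548849, minus strand) read 74.3 and 73.8 CPM in Naive, 55.2, 65.0, 45.7, 56.6 and 39.8 in Ag and 282, 322, 330.5, 234 and 311 in Ag+Costim. All Ag libraries were below both Naive libraries and all Ag+Costim libraries were above them. The fall with antigen was -0.50 (standard error 0.17, adjusted p = 0.028) and the rise with costimulation 2.50 (standard error 0.14, adjusted p = 2.03e-08), smaller only than those of Mcm10, Pole and Orc1. The fall was lost when Ag replicate 3 or either Naive library was left out (adjusted p from 0.0559 to 0.121), and under the correction for transcript length it was -0.18 with an adjusted p of 0.418. Pold3 read 41.6 and 40.6 CPM in Naive, 69.3, 80.8, 74.0, 62.3 and 64.1 in Ag and 158, 164, 154, 112 and 144 in Ag+Costim, with no overlap and 1.06 (standard error 0.11, adjusted p = 2.53e-06) for costimulation. Pold2 rose by 1.11 ± 0.11 with costimulation and by 0.42 (standard error 0.15, adjusted p = 0.0378) with antigen, a call that was lost when any of Ag replicates 1, 2 or 3 or either Naive library was left out (adjusted p from 0.0685 to 0.189). Under the correction for transcript length the antigen value of Pold2 was 0.24 and not called (adjusted p = 0.186). On the FPKM scale, the level of Pold1 relative to Pold2 was 0.886 ± 0.0192 (SD, n = 2) in Naive, 0.473 ± 0.111 (n = 5) in Ag and 1.21 ± 0.11 (n = 5) in Ag+Costim.

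In Ag+Costim against Ag, polymerase epsilon showed the widest spread of log2 fold changes between subunits of 1 complex that are members. Polymerase delta spread wider when Pold4, a subunit outside the members, was counted (-1.67). Pole, the catalytic subunit (ENSMUSG00000007080.14, chr5:110286306-110337474, plus strand), read 7.26 and 6.78 CPM in Naive, 12.1, 11.6, 9.41, 15.5 and 5.08 in Ag and 87.7, 113, 81.9, 62.5 and 84.9 in Ag+Costim. Ag replicate 5 was below both Naive libraries, and the lowest Ag+Costim library exceeded the highest Ag library several times over. Its log2 fold change was 3.01 (standard error 0.25, adjusted p = 4.18e-07) for costimulation and 0.61 (standard error 0.32, adjusted p = 0.141) for antigen. The antigen value was called under the correction for transcript length (1.28, adjusted p = 0.00324), on gene FPKM + 1 (0.69, adjusted p = 0.0470) and + 0.1 (0.99, adjusted p = 0.0346), and without Ag replicate 5 (0.79, adjusted p = 0.0144). Pole4, a small histone-fold subunit (ENSMUSG00000030042.15, chr6:82618992-82705365, minus strand), read 153 and 143 CPM in Naive, 193, 171, 222, 151 and 159 in Ag and 163, 151, 154, 142 and 159 in Ag+Costim. Its 3 groups overlapped, with log2 fold changes of -0.22 (standard error 0.10, adjusted p = 0.0834) for costimulation and 0.28 (standard error 0.14, adjusted p = 0.109) for antigen. Without Ag replicate 4 the costimulation value of Pole4 was -0.28 with an adjusted p of 0.0258, and under the correction for transcript length it was 0.02. It was called lower with upper-quartile scaling (-0.42, adjusted p = 0.00333) and on gene FPKM (-0.37, adjusted p = 0.00379), and its antigen value was called without Ag replicate 4 (0.34, adjusted p = 0.0399). Pole2 rose by 1.14 ± 0.11 and Pole3, the histone-fold partner of Pole4, by 0.48 ± 0.11 with costimulation. With antigen they gave 0.46 (standard error 0.15, adjusted p = 0.0213) and 0.61 (standard error 0.15, adjusted p = 0.00388). Under the correction for transcript length the antigen value of Pole2 was 0.31 and not called (adjusted p = 0.145). With the replicate block it was 0.48 and not called either (adjusted p = 0.0726). Leaving out either Naive library ended the antigen call of Pole2 (adjusted p = 0.115 and 0.124), and leaving out Naive replicate 2 that of Pole3 (adjusted p = 0.0806). On the FPKM scale, the level of Pole relative to Pole4 was 0.0101 ± 0.00187 (SD, n = 2) in Naive, 0.0193 ± 0.00942 (n = 5) in Ag and 0.112 ± 0.0228 (n = 5) in Ag+Costim.

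PCNA, the sliding clamp, and the 5 subunits of its loader, replication factor C, were all called higher with costimulation. Pcna rose by 1.06 ± 0.13, Rfc3 by 1.05 ± 0.14, Rfc4 by 1.07 ± 0.17 and Rfc1, the large subunit, by 0.90 ± 0.12 on the log2 scale. Rfc5 read 43.7 and 39.0 CPM in Naive, 142, 142, 128, 135 and 84.5 in Ag and 272, 284, 286, 219.9 and 283 in Ag+Costim, which is 1.09 (standard error 0.13, adjusted p = 1.30e-05) with no overlap. Rfc2 read 106 and 98.5 CPM in Naive, 255, 237, 228, 207 and 175 in Ag and 279.9, 288, 302, 255 and 307 in Ag+Costim. Ag+Costim replicate 4 fell just below Ag replicate 1, and the log2 fold change was 0.38 (standard error 0.10, adjusted p = 0.00583), which under the correction for transcript length was -0.07 with an adjusted p of 0.631. Its call was lost as well with upper-quartile scaling (0.18, adjusted p = 0.140) and on gene FPKM (0.29, adjusted p = 0.0701). With antigen, Pcna gave 1.25 (standard error 0.18, adjusted p = 9.24e-05) and Rfc2 to Rfc5 rose by 1.11, 1.96, 2.16 and 1.61, while Rfc1 had -0.11 (standard error 0.16, adjusted p = 0.59). On gene FPKM the antigen value of Rfc2 was 0.25 and no longer called (adjusted p = 0.223), and under the correction for transcript length that of Rfc1 was 0.43 (adjusted p = 0.0460). A pair of annotated pseudogenes bears the name of Pcna, and how the counting split reads between them and the gene is not known.

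RPA protects single-stranded DNA with 3 subunits. Rpa2 read 79.5 and 75.5 CPM in Naive, 173, 158, 161, 163 and 136 in Ag and 305, 319.6, 331, 280.0 and 324 in Ag+Costim, with 0.98 (standard error 0.08, adjusted p = 3.80e-07) for costimulation and tight groups that did not overlap. Rpa3, the smallest subunit, read 27.8 and 24.7 CPM in Naive, 62.1, 49.3, 62.3, 55.0 and 42.4 in Ag and 72.9, 61.9, 65.6, 51.3 and 67.8 in Ag+Costim. Ag and Ag+Costim overlapped, and its log2 fold change was 0.24 (standard error 0.12, adjusted p = 0.12) for costimulation and 1.05 (standard error 0.17, adjusted p = 2.43e-04) for antigen. Without Ag+Costim replicate 4 the costimulation value of Rpa3 was 0.33 with an adjusted p of 0.0311, and under the correction for transcript length it was 0.57 with an adjusted p of 2.80e-04. Rpa1, the large subunit, rose by 0.87 ± 0.09 with costimulation and by 0.35 (standard error 0.12, adjusted p = 0.0301) with antigen. The antigen call of Rpa1 was lost when Ag replicate 2, 3 or 5 or either Naive library was left out (adjusted p from 0.0504 to 0.168), and on gene FPKM the values of Rpa1, Pola1, Pold2 and Pole2 were 0.06, 0.48, 0.22 and 0.22, none of them called.

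Lagging-strand fragments are trimmed by the flap nuclease Fen1 and joined by the ligase Lig1. Lig1 read 17.2 and 17.4 CPM in Naive, 122, 102, 91.7, 123 and 55.4 in Ag and 419, 468, 473, 322 and 439 in Ag+Costim, with 2.51 (standard error 0.28, adjusted p = 1.09e-05) for antigen and 2.102 (standard error 0.19, adjusted p = 8.65e-07) for costimulation. Fen1 read 52.4 and 49.3 CPM in Naive, 168, 153, 146, 139.7 and 109 in Ag and 441, 458, 471, 336 and 463 in Ag+Costim, with 1.60 (standard error 0.12, adjusted p = 2.23e-07) for costimulation. In neither gene did any 2 groups overlap.

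Ribonucleotide reductase makes the deoxynucleotides for replication from its large subunit Rrm1 and small subunit Rrm2. Rrm2 (ENSMUSG00000020649.11, chr12:24708241-24714146, plus strand) had the largest rise of all members with antigen and became the most abundant member on the FPKM scale after costimulation. It read 16.1 and 16.7 CPM in Naive, 452, 384, 361, 444 and 221 in Ag and 1626, 1767, 1675, 1190.0 and 1586 in Ag+Costim. The groups were far apart, with log2 fold changes of 4.51 (standard error 0.29, adjusted p = 1.48e-07) for antigen and 2.07 (standard error 0.18, adjusted p = 4.81e-07) for costimulation. Rrm1 read 53.8 and 47.6 CPM in Naive, 222, 199, 177, 202 and 141 in Ag and 889, 1027, 951, 717 and 922 in Ag+Costim, with 1.89 (standard error 0.19, adjusted p = 3.43e-06) and 2.26 (standard error 0.13, adjusted p = 2.72e-08). The FPKM of Rrm2 relative to Rrm1 was 0.593 ± 0.0452 (SD, n = 2) in Naive, 3.62 ± 0.439 (n = 5) in Ag and 3.20 ± 0.119 (n = 5) in Ag+Costim, so the small subunit passed the large one with antigen and the ratio in Ag+Costim lay within the Ag range of 2.92 to 4.10.

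Chromatin assembly factor 1 places new histones behind the fork. Chaf1a, its large subunit, read 5.70 and 9.37 CPM in Naive, 41.8, 43.8, 34.5, 48.1 and 23.2 in Ag and 183, 204, 181, 110.5 and 169 in Ag+Costim, with 2.34 (standard error 0.32, adjusted p = 5.30e-05) for antigen and 2.15 (standard error 0.21, adjusted p = 2.08e-06) for costimulation. Chaf1b, the middle subunit, read 30.6 and 28.3 CPM in Naive, 74.9, 63.9, 60.5, 80.1 and 57.2 in Ag and 170.0, 173, 180.4, 155 and 195 in Ag+Costim, with 1.38 (standard error 0.10, adjusted p = 1.91e-07) for costimulation. Both were separated between all groups, and the FPKM of Chaf1a relative to Chaf1b was 0.0838 ± 0.0434 (SD, n = 2), 0.193 ± 0.0336 (n = 5) and 0.331 ± 0.0639 (n = 5) in Naive, Ag and Ag+Costim.

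The fork protection genes Timeless and Tipin encode partners that stabilise a paused fork, and claspin (Clspn) relays the replication checkpoint. Timeless read 38.3 and 26.4 CPM in Naive, 35.9, 35.0, 30.8, 37.6 and 18.3 in Ag and 124, 143, 131, 94.9 and 132 in Ag+Costim. Naive and Ag overlapped and Ag+Costim stood clear, with -0.04 (standard error 0.24, adjusted p = 0.915) for antigen and 1.99 (standard error 0.19, adjusted p = 1.24e-06) for costimulation. Tipin read 39.5 and 30.2 CPM in Naive, 148, 124, 126, 126 and 93.3 in Ag and 250, 240.2, 229.9, 169.5 and 215 in Ag+Costim. It rose at both steps, by 1.83 (standard error 0.20, adjusted p = 7.90e-06) and 0.84 (standard error 0.13, adjusted p = 1.40e-04). Clspn rose by 2.61 (standard error 0.41, adjusted p = 1.70e-04) with antigen and 1.87 (standard error 0.27, adjusted p = 4.60e-05) with costimulation.

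Levels between genes can be compared on the FPKM scale, which is divided by transcript length. In Naive the median member stood at 16.4 FPKM, with Pole4 highest (121), then Pcna (76.0) and Rpa1 (68.6), and 4 members were below 1 FPKM (Mcm10, Orc1, Cdc6 and Clspn). In Ag the median was 34.2 FPKM, with Rrm2 (171), Pcna (160) and Pole4 (145) highest and Pole lowest at 2.72. In Ag+Costim the median was 74.1 FPKM, with Rrm2 (692), Mcm6 (388) and Mcm5 (324) highest and Mcm8 lowest at 11.7, and 31 members exceeded 50 FPKM against 16 in Ag and 6 in Naive. Pole4, the most abundant member in Naive, read 121 ± 0.399 FPKM (SD, n = 2) in Naive, 145 ± 20.1 (n = 5) in Ag and 111 ± 4.58 (n = 5) in Ag+Costim.

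Within several complexes the highest and the lowest subunit stood closer together after stimulation. The highest origin recognition subunit exceeded the lowest 100-fold in Naive (Orc3 over Orc1), 16.6-fold in Ag and 5.34-fold in Ag+Costim (Orc6 over Orc1), on group means of FPKM. This narrowing lay in Orc1. The other subunits, with Orc2 lowest, ran from 10.2 to 46.3 FPKM in Naive, 10.6 to 47.3 in Ag and 22.1 to 93.7 in Ag+Costim. For polymerase epsilon the same ratio was 98.9, 53.1 and 8.99 (Pole4 over Pole in each group), for polymerase alpha 13.1, 9.95 and 4.74, and for the genes of helicase activation 27.9, 7.11 and 3.55. The MCM ring was already even in Naive, with a ratio of 2.96 in Naive, 3.57 in Ag and 2.29 in Ag+Costim. The clamp and its loader went the other way, from 6.68 to 11.7 and 13.5, with Pcna highest in every group. The ratio was also wider in Ag+Costim than in Naive for ribonucleotide reductase (1.69, 3.68 and 3.21), RPA (1.59, 1.22 and 1.83) and Mcm10 with Mcm8 (2.92, 1.75 and 3.34). Polymerase delta changed little (1.82, 2.14 and 1.79). The licensing factors, Fen1 with Lig1, chromatin assembly factor 1 and the fork protection genes drew closer at both steps. No test was made of these ratios, since the genes were grouped with earlier results known.

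**Figure D3:**
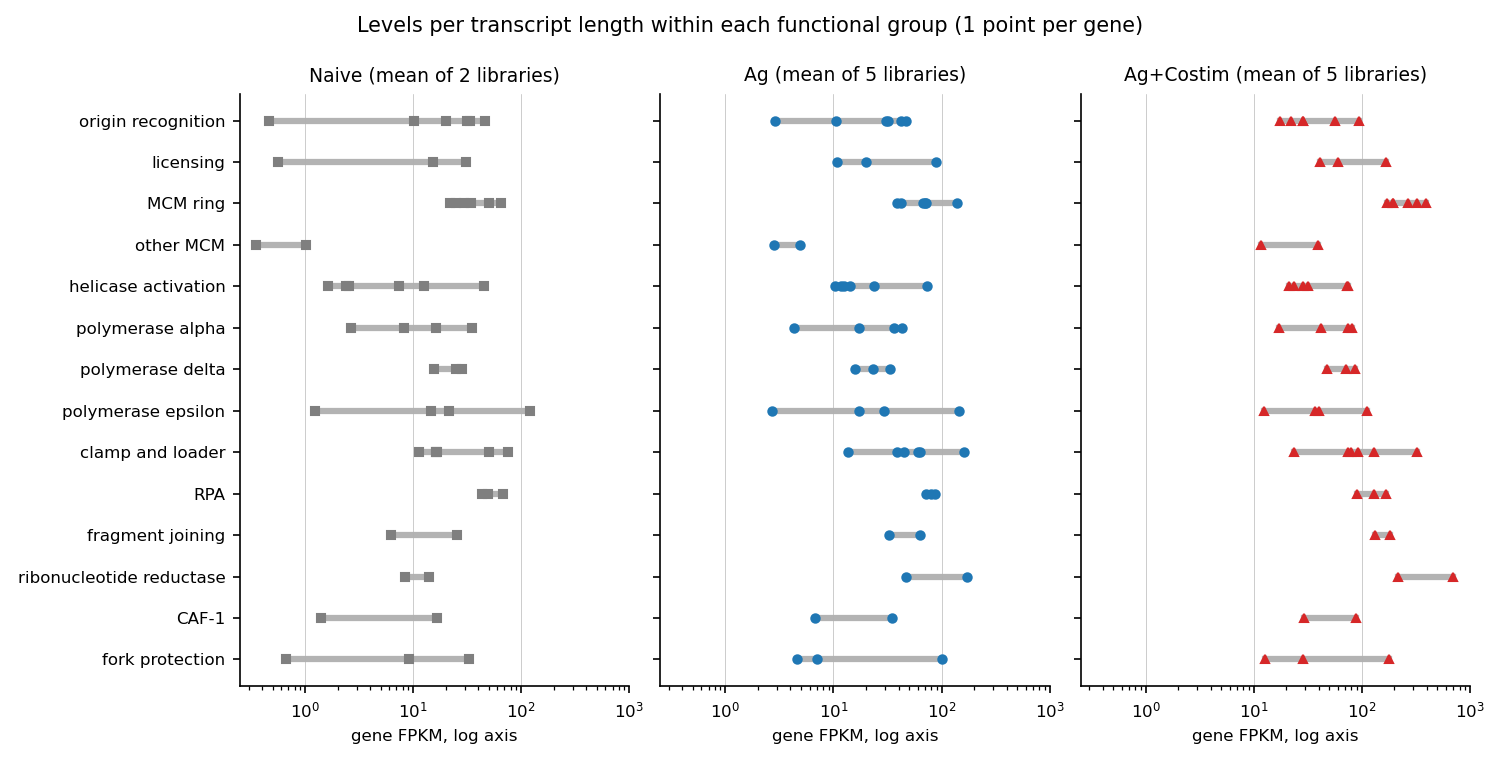
Gene FPKM (x axis, log scale, mean over the libraries of a group) of the 52 members by functional group (y axis), with 1 panel per condition, 1 point per gene and a grey bar from the lowest to the highest gene of a group. The bar of origin recognition shortens from a 100-fold span in Naive to 5.34-fold in Ag+Costim, while that of clamp and loader lengthens from 6.68 to 13.5.

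A further 62 genes that act in or around replication but are not members were listed by role. All 62 were tested, and in Ag+Costim against Ag 47 were called higher, 4 lower and 11 were not called, with a median log2 fold change of 1.08. Of all genes tested, 26.6% were called higher and 26.5% lower there (median -0.05). In Ag against Naive 36 were higher, 7 lower and 19 not called (median 0.87), beside 24.2% and 22.5% of all genes (median 0.02). In Ag+Costim against Naive 48 were higher, 5 lower and 9 not called (median 1.83), beside 26.9% and 25.4% of all genes (median -0.02). By role, calls in Ag+Costim against Ag were 11 higher and 0 lower of 13 for origin firing, 10 and 2 of 16 for further polymerases, clamp loading and processing, 7 and 2 of 11 for nucleotide supply, 10 and 0 of 11 for replication-coupled chromatin, and 9 and 0 of 11 for the replication checkpoint.

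The largest rises with costimulation among these were Dna2, a nuclease of fragment processing, with 3.18 (standard error 0.32, adjusted p = 2.15e-06), the maintenance DNA methyltransferase Dnmt1 with 3.07 (standard error 0.14, adjusted p = 5.76e-09) and Chtf8, part of an alternative clamp loader, with 3.00 (standard error 0.19, adjusted p = 5.20e-08). In Ag against Naive Dnmt1 was lower, at -0.68 (standard error 0.17, adjusted p = 0.00445). The largest falls with costimulation were Pold4, the smallest subunit of polymerase delta, with -1.67 (standard error 0.12, adjusted p = 1.49e-07), the deoxynucleotide hydrolase Samhd1 with -1.13 (standard error 0.15, adjusted p = 2.98e-05) and Rrm2b, the p53-regulated form of the small reductase subunit, with -0.76 (standard error 0.14, adjusted p = 4.85e-04). Pold4 averaged 33.1 ± 0.163 CPM (SD, n = 2) in Naive, 58.4 ± 1.86 (n = 5) in Ag and 18.4 ± 3.73 (n = 5) in Ag+Costim. In Ag+Costim against Ag it thus went against the other 3 subunits of its enzyme. Samhd1 averaged 323 ± 17.1, 612 ± 84.4 and 281 ± 66.4 CPM in the same order.

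With antigen, rises among the largest outside the members were those of thymidine kinase Tk1 (4.45 (standard error 0.31, adjusted p = 2.24e-07)) and Dtl, which targets Cdt1 for degradation (3.69 (standard error 0.28, adjusted p = 4.83e-07)). The largest falls were Chtf8 (-2.32 (standard error 0.22, adjusted p = 2.53e-06)), the translesion polymerase subunit Rev3l (-1.25 (standard error 0.17, adjusted p = 6.58e-05)) and the checkpoint kinase Atr (-1.10 (standard error 0.19, adjusted p = 4.17e-04)). The annotation holds 2 entries named Chtf8, and the values are those of the entry with more counts. In Ag+Costim against Naive, Dtl (5.96 (standard error 0.32, adjusted p = 1.41e-08)), Tk1 (5.91 (standard error 0.33, adjusted p = 2.06e-08)) and the topoisomerase Top2a (5.72 (standard error 0.32, adjusted p = 1.76e-08)) rose most, and Rev3l (-0.91 (standard error 0.18, adjusted p = 6.81e-04)), Pold4 (-0.85 (standard error 0.15, adjusted p = 3.93e-04)) and the translesion polymerase Poli (-0.75 (standard error 0.14, adjusted p = 5.02e-04)) fell most.

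Transcript length moved with the size of the change. Across the 52 members, Spearman's rho between mean transcript length and the log2 fold change in Ag+Costim against Ag was 0.542, and across all 18817 genes, which are not independent replicates, it was 0.258. By length, the members' median log2 fold change was 0.96 for the 7 members under 1500 bases, 1.13 for the 24 of 1500 to 3000 bases and 2.02 for the 21 of 3000 bases and more, against -0.36, -0.10 and 0.32 for all genes of those lengths. For Ag against Naive rho was -0.108 over the members and -0.261 over all genes. The medians by length there were 1.83, 1.11 and 0.85 for the members against 0.38, 0.10 and -0.45. In every length class and in both comparisons the members' median was thus above that of all genes of the same length. With a correction for transcript length built into the fit, the calls in Ag+Costim against Ag came to 48 rises and 0 falls among the members, with a median of 1.34. The part of transcript length in the differences between members was not tested beyond this.

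**Figure D4:**
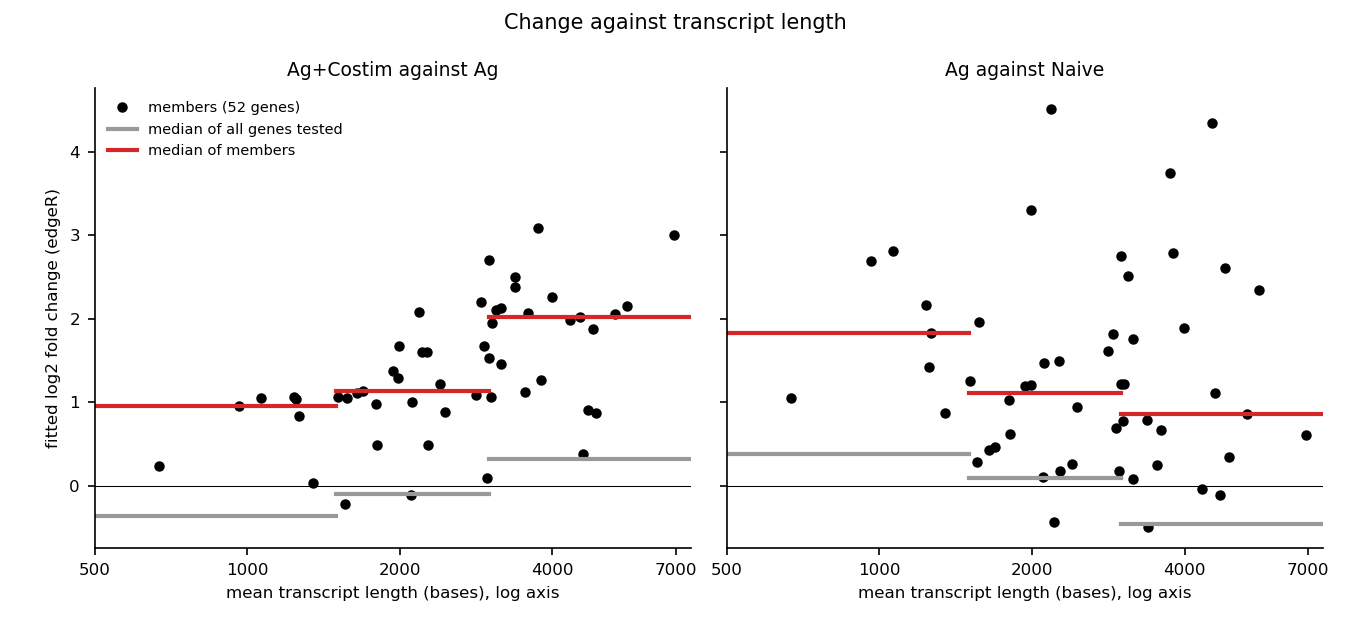
Fitted log2 fold change (y axis) against mean transcript length in bases (x axis, log scale) for the 52 members (points) in Ag+Costim against Ag (left) and Ag against Naive (right), with lines for the median of the members (red) and of all genes tested (grey) in 3 length classes. In the left panel the red medians climb from 0.96 to 2.02 and the grey ones from -0.36 to 0.32, and in the right panel both descend.

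The transcript table allowed a readout that the choice of members did not use, namely the percent of a gene's transcript counts that lies on transcripts annotated as protein-coding. It could be tested in 47 members and 8391 genes (limma, adjusted p below 0.05). In Ag+Costim against Ag 3 of 47 members were called higher and 1 lower, where 8.66% and 1.26% of all genes were. The members' median difference was 0.394 percentage points, against 0.319 over all genes. In Ag against Naive 14 members were higher and 1 lower, where 18.9% and 1.48% of all genes were, with a median difference of 0.535 points against 0.707.

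Of the 4 members called between the stimulated groups, Pole differed most in this share, although uncalled members differed by more, Timeless by 35.6 percentage points (limma, adjusted p = 0.158). It held 95.5% ± 2.86 (SD, n = 2) of its counts on protein-coding transcripts in Naive, 84.7% ± 6.20 (n = 5) in Ag and 98.0% ± 0.639 (n = 5) in Ag+Costim. The rise with costimulation was 13.3 ± 2.57 percentage points (SE, adjusted p = 0.00920) and the fall with antigen 10.8 points (adjusted p = 0.0459), and the Ag range of 77.9% to 92.9% lay below both other groups. Pole overlaps the annotated genes Gm26277 and Gm15791 on its own strand and Gm15792 on the other. Mcm10 rose from 95.0% ± 0.80 in Ag to 98.5% ± 0.497 in Ag+Costim (adjusted p = 0.0427), and Mcm7 from 99.0% ± 0.414 to 99.7% ± 0.109 (adjusted p = 0.0301). Cdc45 was called lower, from 99.9% ± 0.0263 to 99.7% ± 0.108 (adjusted p = 0.00886). Of the members called higher with antigen, the largest rises in share were Orc3, from 64.4% ± 7.90 (n = 2) to 87.7% ± 5.38 (n = 5, adjusted p = 0.00173), and Rfc2, from 72.1% ± 0.866 to 90.8% ± 3.67 (adjusted p = 0.000330). The count of 3 called higher in Ag+Costim against Ag became 1 when Ag replicate 2 or any of the 5 Ag+Costim libraries was left out, and 10 on a log-odds scale. The count of 1 called lower there became 2 without Ag replicate 2. The count of 1 called lower with antigen became 0 without Ag replicate 1 or 3, without any of the 5 Ag+Costim libraries or without Naive replicate 2, and 2 without Ag replicate 4.

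**Figure D5:**
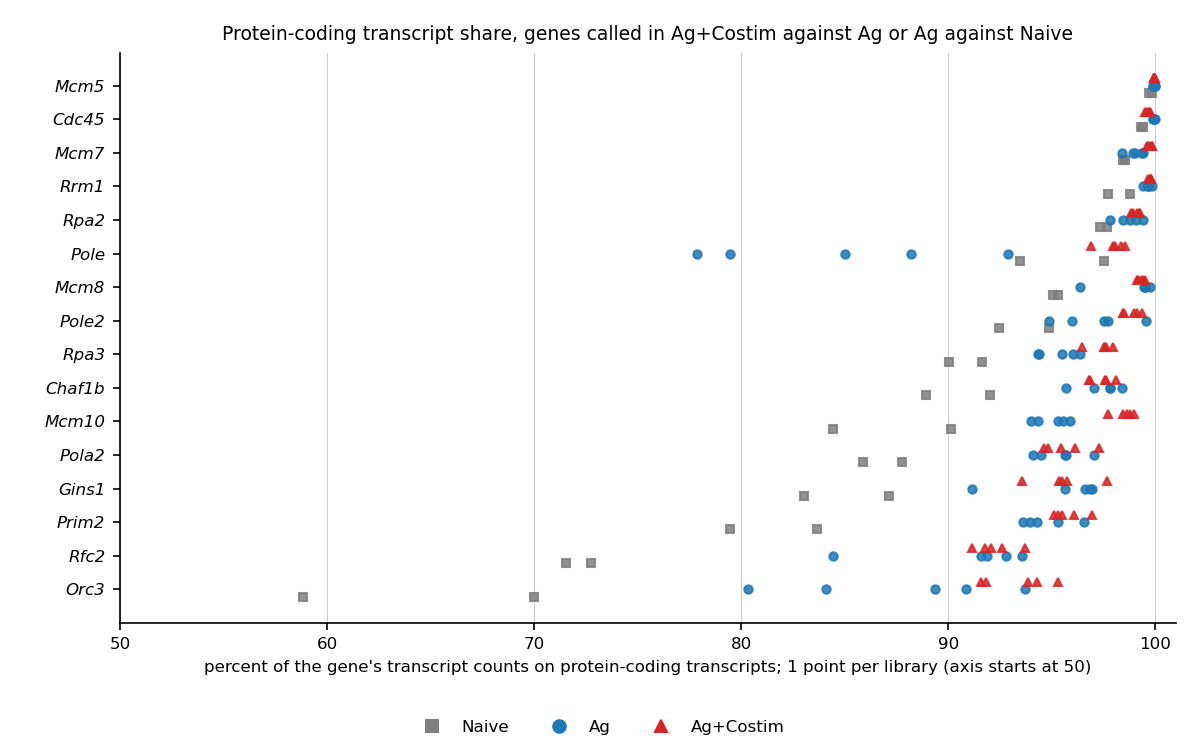
Percent of a gene's transcript counts on protein-coding transcripts (x axis, starting at 50) for the members called in Ag+Costim against Ag or in Ag against Naive (y axis), with 1 point per library. For Pole the 5 Ag libraries spread from 77.9% to 92.9% while the Ag+Costim libraries lie between 96.9% and 98.5%, and for Orc3 and Rfc2 the 2 Naive libraries lie apart at the lowest shares.

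Within a group, single libraries shifted nearly all members together. Among the 5 Ag+Costim libraries, replicate 4 was the lowest for 51 of the 52 members, against 27.7% of all genes tested. Its members took 1.12% of all counts against 1.45% to 1.55% in the other 4 libraries of the group, and its proliferation markers had the lowest sum of the group, 2780 CPM. Among the Ag libraries, replicate 5 was the lowest for 43 members, against 18.3% of all genes, with 0.393% of counts on members against 0.497% to 0.587% in the others and a proliferation marker sum of 660 CPM, again the lowest. Leaving out Ag+Costim replicate 4 or Ag replicate 5 left the counts at 48 and 47 members called higher in Ag+Costim against Ag.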

How the data were processed

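CD8+ T cell RNA was sequenced as single reads after SMART-Seq v4 amplification and Nextera XT library preparation, which does not mark strand. According to the submitters' processing notes and the study's methods, the authors aligned reads with HISAT2 2.1.0 to mm10, used SAMtools 1.9 and StringTie 2.1.0, and tested with DESeq2 1.30.1 in R 4.0.5. The deposited gene and transcript tables hold read counts that the authors obtained with StringTie, taken here as deposited. The deposited FPKM table holds values per transcript, scaled by its length and the library size, which were summed here by gene name. Of 81881 gene entries, 26345 without an annotated identifier (0.0508% to 0.121% of counts) were left out. Columns were matched to samples by their titles.

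The main test was edgeR 4.0.16 (robust quasi-likelihood, TMM, filterByExpr, 18817 genes kept) over all 12 libraries, with Benjamini-Hochberg adjustment and a threshold of 0.05. The share of transcript counts on protein-coding transcripts (GENCODE vM21) was tested with limma 3.58.1 in genes with a mean of at least 50 transcript counts and at least 10 in each library. Alternatives were upper-quartile and RLE scaling, DESeq2 1.42.0, no filter, only the 2 groups compared, the replicate number as a block, a correction for transcript length, limma on log2(FPKM + 1) and log2(FPKM + 0.1), and leaving out each library. For the share they were a mean of at least 200 counts, log odds, the block and each library left out. Statistics were tested on simulated data with 200 genes changed. Counts of 24006053 to 49294934 per library set the precision, and reads without molecular identifiers are not independent molecules.

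The members, the 14 groups and the other lists were chosen with earlier results of these data known. All members are named. Values in every library are given for the most and the least changed member of each group in Ag+Costim against Ag, and of the other replication genes the 3 largest called rises and falls per comparison are named, except a result that is not reported here. Values of Cdt1 are given as means, and ratios of FPKM were chosen after the values were seen. No columns of the tables used were without a sample.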

Additional observations from a re-analysis of the deposited data

Results flagged for a closer look

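In groups of 5 libraries, a library was picked out where its gap to the nearest other library was more than 0.71 of the group's range (Dixon's limit at the 95% level). Of 104 groups tested, 13 held such a library, always the lowest, and this limit picks out some groups by chance. The groups share libraries and the genes move together, so the 13 are not independent.

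Of these, 11 were Ag+Costim replicate 4, the library with the lowest summed proliferation markers of its group. It read 89.3 CPM for Orc6 (the other 4 libraries 123 to 135), 131 for Gmnn (168 to 178) and 727 for Mcm5 (994 to 1050). Helicase activation genes read 120 CPM for Cdc45 (156 to 166) and 55.3 for Gins2 (87.9 to 95.6). Polymerase genes read 102 CPM for Pold2 (125 to 133) and 59.8 for Pole3 (76.0 to 82.2). The clamp loader genes Rfc4 and Rfc5 read 129 CPM (171 to 182) and 220.0 CPM (272 to 286). Fen1 read 336 CPM (441 to 471) and Clspn 45.9 CPM (57.8 to 59.7). All 11 genes stayed called higher in Ag+Costim against Ag with this library left out.

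Rfc5 was low in Ag replicate 5, at 84.5 CPM against 128 to 142 in the other Ag libraries. Orc5 was low in Ag replicate 4, the shallowest library and the one with the most erythroid marker RNA, at 45.6 CPM against 70.8 to 75.8. The part of depth and erythroid RNA in this value was not tested.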

How the results depend on the processing

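The 47 members called higher in Ag+Costim against Ag numbered 46 to 48 under all 9 other settings and whichever library was left out, and the 49 in Ag+Costim against Naive 49 to 50. In Ag against Naive the 40 numbered 34 (without either Naive library) to 42. Members called lower in Ag+Costim against Ag were 2 with upper-quartile scaling, 1 with limma on FPKM + 1 or + 0.1, and 0 to 2 with a library left out. In Ag against Naive they were 0 with the replicate block, 1 with the length correction and 0 to 2 with a library left out. The members' median log2 fold change on FPKM + 1 was 0.86 in Ag against Naive and 2.24 in Ag+Costim against Naive (2.34 with + 0.1). The other replication genes called lower were 7 with upper-quartile scaling in Ag+Costim against Ag, 11 with either FPKM pseudocount in Ag against Naive (4 to 9 with a library left out), and 3 to 6 with a library left out in Ag+Costim against Naive. For the protein-coding share, members called higher in Ag+Costim against Ag were 10 on log odds, 1 with the replicate block and 1 to 4 with a library left out, with 1 to 2 lower. In Ag against Naive 0 were lower with the block and 0 to 2 with a library left out, and in Ag+Costim against Naive 1 was lower on log odds, 1 with the block and 0 to 1 with a library left out. The cause of these changes was not tested.

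Of the replicate numbers, same-numbered Ag and Ag+Costim libraries had correlations of their deviations between 0.0159 and 0.0951. Ag replicates 1, 2 and 3 correlated best with the Ag+Costim library of their own number, and Ag replicates 4 and 5 did not. The labels do not say what a number stands for, and whether it marks a pairing cannot be told from these values. With the replicate block 47, 39 and 49 members were called higher in Ag+Costim against Ag, Ag against Naive and Ag+Costim against Naive.

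The log2 fold changes that turned their sign were these. Orc4 in Ag+Costim against Ag turned from 0.092 to -0.10 (upper-quartile scaling), -0.075 (the correction for transcript length), -0.11 (limma on gene FPKM + 1) and -0.12 (limma on gene FPKM + 0.1). Gins4 in Ag+Costim against Ag turned from 0.026 to -0.17 (upper-quartile scaling), -0.00997 (limma on gene FPKM + 1), -0.0100 (limma on gene FPKM + 0.1), -0.017 (without Ag replicate 4) and -0.019 (without Ag replicate 5), within -0.019 to 0.084 over the libraries left out. Pole4 in Ag+Costim against Ag turned from -0.22 to 0.023 (the correction for transcript length). Rfc2 in Ag+Costim against Ag turned from 0.38 to -0.068 (the correction for transcript length). Orc3 in Ag against Naive turned from 0.18 to -0.12 (limma on gene FPKM + 1) and -0.12 (limma on gene FPKM + 0.1). Orc4 in Ag against Naive turned from 0.18 to -0.033 (limma on gene FPKM + 1) and -0.034 (limma on gene FPKM + 0.1). Orc5 in Ag against Naive turned from 0.10 to -0.092 (limma on gene FPKM + 1) and -0.10 (limma on gene FPKM + 0.1). Cdc7 in Ag against Naive turned from 0.074 to -0.12 (limma on gene FPKM + 1), -0.13 (limma on gene FPKM + 0.1) and -0.028 (without Ag replicate 2), within -0.028 to 0.17 over the libraries left out. Rfc1 in Ag against Naive turned from -0.12 to 0.43 (the correction for transcript length). Timeless in Ag against Naive turned from -0.038 to 0.0095 (upper-quartile scaling), 0.094 (the replicate block), 0.45 (the correction for transcript length), 0.11 (without Ag replicate 5) and 0.25 (without Naive replicate 1), within -0.28 to 0.25 over the libraries left out. Orc4 in Ag+Costim against Naive turned from 0.27 to -0.14 (limma on gene FPKM + 1) and -0.15 (limma on gene FPKM + 0.1). Orc5 in Ag+Costim against Naive turned from -0.012 to 0.0056 (no filter on low counts), 0.043 (the replicate block), 0.0503 (the correction for transcript length), 0.00017 (without Ag+Costim replicate 2), 0.0055 (without Ag+Costim replicate 3) and 0.0034 (without Ag+Costim replicate 4), within -0.029 to 0.0055 over the libraries left out. Pole4 in Ag+Costim against Naive turned from 0.059 to -0.093 (upper-quartile scaling), -0.13 (limma on gene FPKM + 1) and -0.13 (limma on gene FPKM + 0.1).

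A share of FPKM on protein-coding transcripts was not run, since that table gives no transcript identifiers. Depth did not limit the detection of any member, the fewest counts being 45 for Mcm10 in a Naive library, while the 2 Naive libraries limit every comparison with Naive.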
